A study of Mus musculus with 24 samples.

Results

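The comparison is NZO/HiLtJ against WSB/EiJ on the high-fat diet, in subcutaneous inguinal fat. Its members are the 6 of 24 RNA-seq libraries that the labels place in these strains and on this diet, 3 per strain, and no measured value entered the choice. NZO/HiLtJ (here NZO) is an inbred strain known for severe obesity and diabetes, and WSB/EiJ (here WSB) is a wild-derived inbred strain known for staying lean. All animals were female, aged 26 weeks and supplied by the same breeder, with 1 mouse per library. The high-fat diet gave 45% of its energy as fat and held 34% sucrose by weight, and it was fed from weaning. The same strains on the standard diet, with 17% of energy from fat, were 3 other NZO mice and 3 other WSB mice, and their values are given beside the high-fat ones. The other 12 libraries, from C57BL/6J and CAST/EiJ mice, entered the filter on low counts, the scaling and the estimate of the spread between mice, and, in the fits with covariates described below, the covariates' slopes. The strains differ at very many loci, so each difference below belongs to the whole strain background and to no single allele.

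Fat that expands in obesity is known to gather macrophages, which surround dying fat cells, take up their lipid and break it down in lysosomes. Macrophages that handle lipid in this way carry Trem2, Gpnmb, Itgax (CD11c) and the acid lipase Lipa. Transcription factors of the MiT/TFE family, which include Tfeb, Tfe3 and Mitf, are known to switch on lysosomal genes through promoter sites with the core CACGTG. The fat cell itself makes fatty acids from sugar, stores them as triglyceride and signals its lipid stores through leptin.

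The promoters of lysosomal genes are shown first because this gene list was among those that stood furthest above the other genes. Of the 36 lysosomal genes tested, 25 had a promoter in the part of the RefSeq table that was searched (build GRCm38.p6, while the count files name mm9). The search covered the 250 bases before each gene's start, on both strands, for CACGTG, which reads the same on either strand. It found the 6 letters in 9 of the 25 lysosomal promoters (36.0%), in 1167 of 12982 promoters of all genes tested (8.99%) and in 1854 of the 27025 promoters searched (6.86%). Among the 28 lysosomal genes higher in NZO, 20 had a promoter and 7 of these held the core (35.0%), against 220 of 2170 promoters of all genes higher in NZO (10.1%). None of 12 pan-macrophage promoters and none of 14 lipid-associated macrophage promoters held it. GAGGAAGT, a core of sites for the macrophage factor PU.1, was in 2 of the 25 lysosomal promoters (8.0%), in 2 of the 14 lipid-associated ones (14.3%), in none of the 12 pan-macrophage ones and in 392 of 12982 of all genes tested (3.02%), on either strand. The 7 windows, each of 80 bases, are written 5′ to 3′ on the gene's own strand, with each core in capitals:
Lamp1: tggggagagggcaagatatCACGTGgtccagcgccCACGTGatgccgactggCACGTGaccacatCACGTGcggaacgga
Gla: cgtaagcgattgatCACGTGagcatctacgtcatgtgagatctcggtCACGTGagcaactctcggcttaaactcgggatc
Ctsd: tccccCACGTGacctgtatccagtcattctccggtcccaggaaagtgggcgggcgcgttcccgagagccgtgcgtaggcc
Ctsa: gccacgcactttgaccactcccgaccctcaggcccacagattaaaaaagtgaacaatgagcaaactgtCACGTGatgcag
Lgmn: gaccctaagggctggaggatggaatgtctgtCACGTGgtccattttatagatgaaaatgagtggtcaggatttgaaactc
Atp6v1a: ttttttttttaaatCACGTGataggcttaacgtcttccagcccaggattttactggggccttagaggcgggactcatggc
Ctsl: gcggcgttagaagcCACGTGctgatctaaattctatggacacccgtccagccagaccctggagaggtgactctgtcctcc
The windows lie at chr8:13159081-13159160 (plus strand) for Lamp1, a protein of the lysosomal membrane, and at chrX:134601167-134601246 (minus) for Gla, an alpha-galactosidase. They lie at chr7:142387998-142388077 (minus) for the protease Ctsd, chr2:164833693-164833772 (plus) for the carboxypeptidase Ctsa and chr12:102439093-102439172 (minus) for the endopeptidase Lgmn. The last pair lies at chr16:44139325-44139404 (minus) for the proton pump subunit Atp6v1a and chr13:64370691-64370770 (minus) for the protease Ctsl. Lamp1 holds 4 cores in a short stretch and Gla holds 2, while Ctsd holds 2 of which the window shows the first. A match is a run of letters in the reference genome and not a measured binding site, and the same search in the WSB and NZO genomes was not run here.

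The 6 libraries held 65452419 to 73582401 counts each. Log2 CPM correlated at 0.9963 to 0.9974 between the NZO libraries and at 0.9046 to 0.9619 between the WSB libraries, so the WSB animals were less alike. The WSB libraries also held more RNA of epithelial and smooth muscle markers, and the tissue source of this RNA was not tested. The summed level of 18 epithelial markers (in CPM, counts scaled to the library total) was 12.3, 18.4 and 22.1 CPM in NZO and 446, 755 and 1627 CPM in WSB, without overlap. The sum of 14 smooth muscle markers was 334, 329.6 and 393 CPM in NZO and 2967, 1777 and 7866 CPM in WSB, again without overlap. On the standard diet the epithelial sum was 19.5, 26.9 and 12.4 CPM in NZO and 30.3, 31.5 and 87.5 CPM in WSB, so the WSB mice there stood much nearer to NZO. The standard-diet smooth muscle sum was 458, 510.4 and 450.1 CPM in NZO and 233, 312 and 1250 CPM in WSB, on both sides of NZO, with WSB replicate 3 highest in both sums. The liver sum was 1344, 2133 and 596 CPM in standard-diet NZO and 2391, 3340 and 3090 CPM in standard-diet WSB, and 66.1, 35.6 and 31.9 CPM in high-fat NZO and 1723, 1397 and 1421 CPM in high-fat WSB. Most of the high-fat WSB sum came from Cyp2e1, an enzyme of liver and fat given further on. Gene by gene, 9 of the 12 liver genes were higher in NZO on the standard diet and 1 was lower, against the direction of the sum. Among defining markers, the epithelial adhesion protein Epcam had 0.041, 0.0268 and 0.0979 CPM in NZO and 30.7, 51.7 and 11.6 CPM in WSB, and the smooth muscle myosin Myh11 had 31.7, 28.6 and 41.3 CPM in NZO and 698, 334 and 2251 CPM in WSB.

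Single WSB libraries also stood high for neuronal or urothelial markers. The neuronal sum was 86.1, 79.7 and 108 CPM in NZO and 24.9, 2758 and 137 CPM in WSB, and the high WSB value is replicate 2, where the synaptic gene Snap25 stood at 425 CPM and below 1 CPM in the 5 other libraries. The urothelial sum was 17.3, 26 and 31.6 CPM in NZO and 62.3, 38.5 and 1410 CPM in WSB, and the high value is replicate 3, where the bladder plaque gene Upk1a stood at 339 CPM. The reproductive tract sum was 12.2, 10.3 and 12.6 CPM in NZO and 329.8, 241 and 147 CPM in WSB, and the mesothelial sum 59.4, 84.8 and 84.8 CPM in NZO and 279.5, 260.1 and 352 CPM in WSB, without overlap in either. Fat itself was present in all 6 libraries: the summed level of 20 adipocyte identity genes was 40570, 36540 and 42520 CPM in NZO and 34080, 22840 and 31680 CPM in WSB. The subcutaneous depot genes summed to 18.8, 16.9 and 18.5 CPM in NZO and 10.1, 6.77 and 10.7 CPM in WSB.

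**Figure D1:**
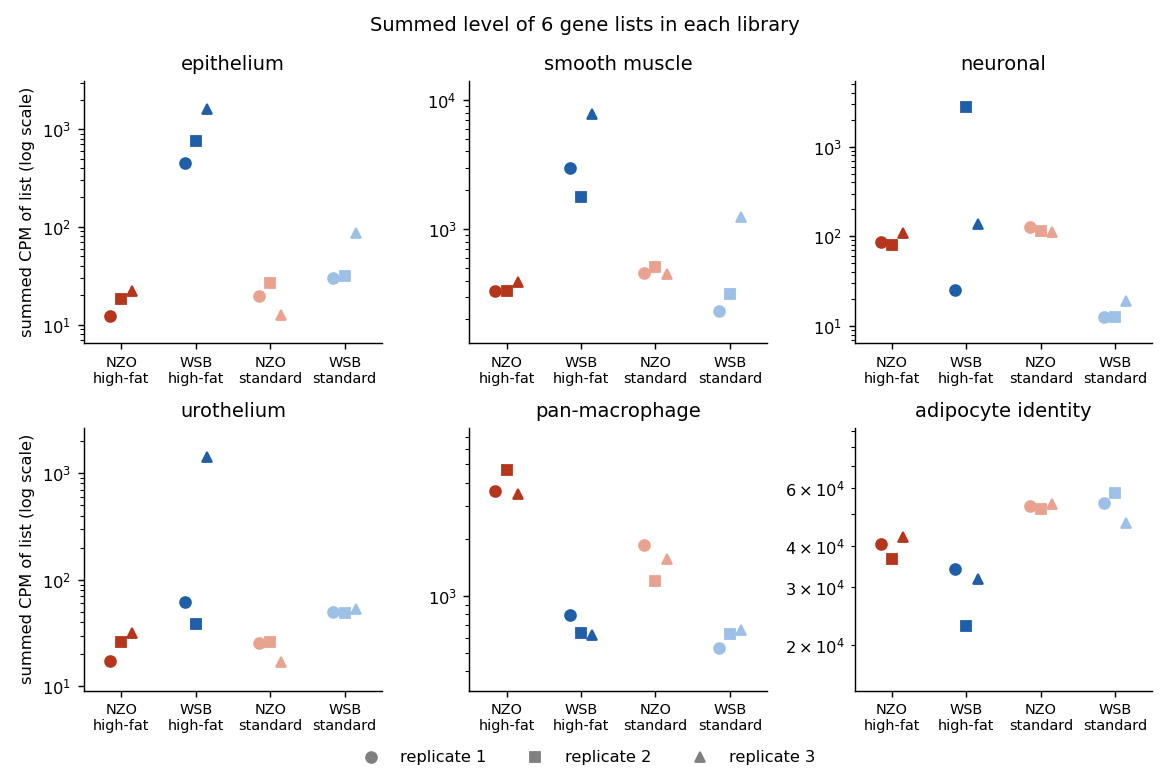
Summed CPM per library (log axis) of 6 gene lists, 1 point per mouse, with replicates 1, 2 and 3 as circle, square and triangle and the 4 groups along the axis. The 3 high-fat WSB libraries lie above every NZO library for epithelium and smooth muscle, WSB replicate 2 alone is high for neuronal genes, WSB replicate 3 alone is high for urothelium, and pan-macrophage sums are highest in the high-fat NZO mice.

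Genes lower in NZO are therefore counted separately from genes higher in NZO, though a paragraph may describe both. With edgeR's quasi-likelihood test on all 24 libraries and an adjusted p below 0.05, 3346 of 20035 genes were higher in NZO (16.7%) and 3982 were lower (19.9%), 36.6% in either direction. The 3 and 3 libraries did not overlap for 52.3% of the genes tested. Of the lower genes, 1472 (36.97%) had a highest WSB library more than 4 times the lowest, against 33 of the higher genes (0.986%) for the NZO libraries. Without NZO replicate 1 or 2 the lower count was 2606 and 2610. The peak was WSB replicate 2 for 971 of those 1472 genes, replicate 3 for 365 and replicate 1 for 136.

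A fit with the log2 epithelial and smooth muscle sums as 2 covariates called 1271 genes higher (6.34%) and 1442 lower (7.2%), of which 877 and 564 were among the genes called without them in the same direction. One CAST/EiJ high-fat library, with the highest sums of all 24 (2147 CPM and 15270 CPM); without it the covariates left 106 genes higher and 72 lower. In the 6 libraries both sums separate the strains fully, so strain and these transcripts cannot be told apart there, and counts with covariates are given with the pathway lists below. On the standard diet, 3144 genes were higher in NZO (15.7%) and 2492 lower (12.4%). Of the genes called on the high-fat diet, 1943 were also higher and 1245 also lower in NZO on the standard diet.

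**Figure D2:**
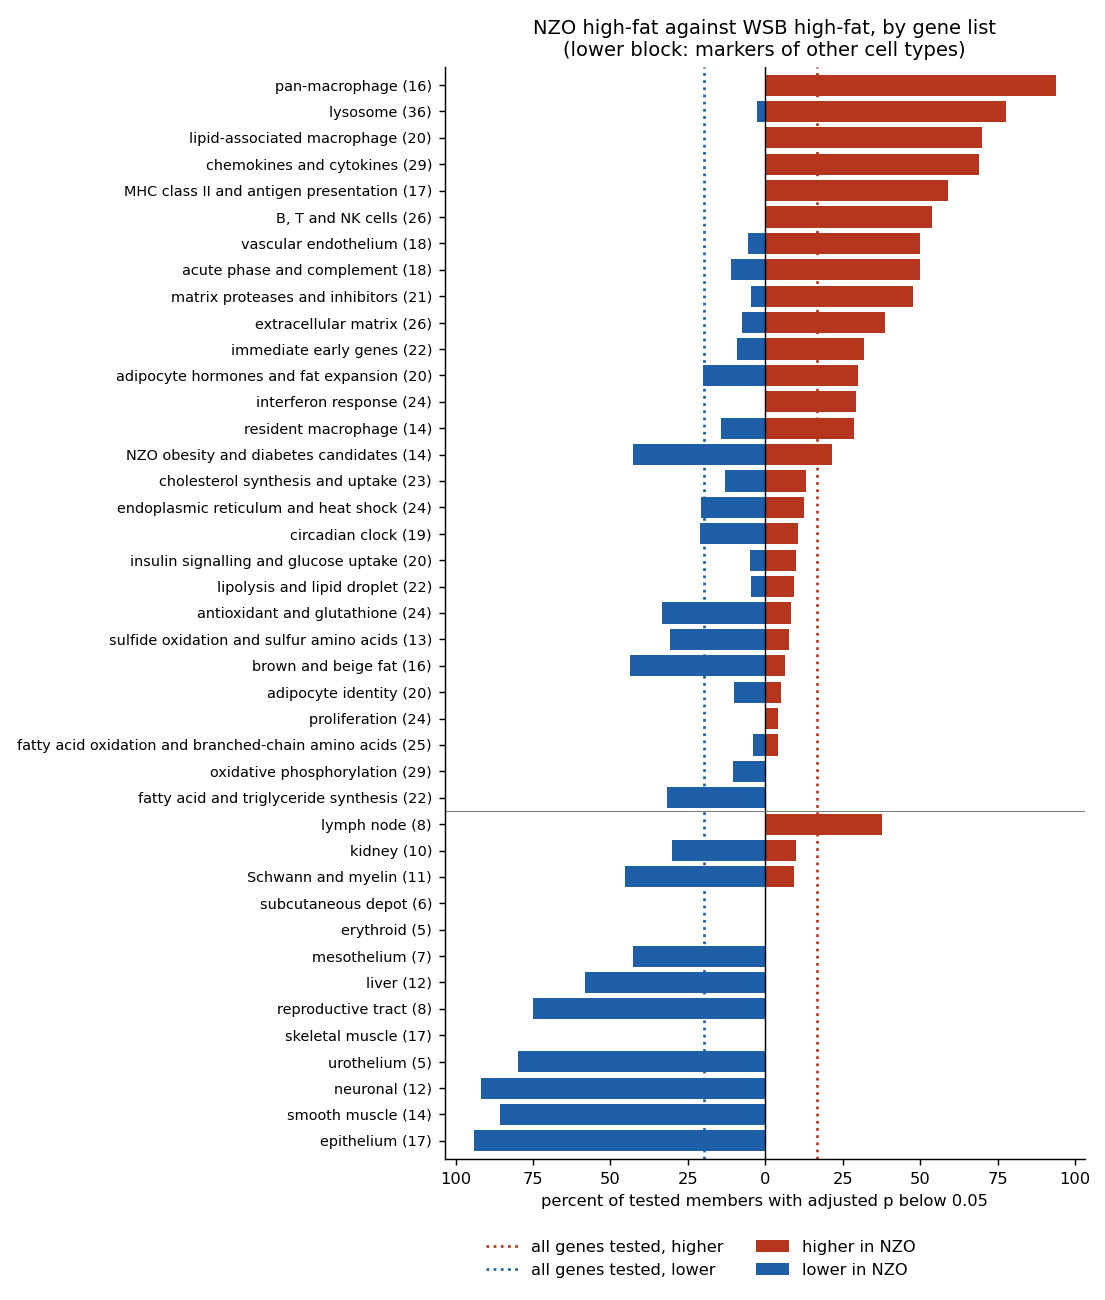
Percent of the tested members of each list that were higher (right, red) or lower (left, blue) in NZO than in WSB on the high-fat diet at an adjusted p below 0.05, with the number tested in brackets. Dotted lines mark the shares over all genes tested, 16.7% higher and 19.9% lower. Immune and lysosomal lists extend furthest to the right, and epithelium, neuronal, smooth muscle and urothelium lists furthest to the left.

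Macrophage genes were far higher in NZO fat. Of 16 pan-macrophage genes, 15 rose (16.7% of all genes did) and none fell, with a median log2 difference (NZO minus WSB) of 2.80, against -0.087 over all genes. More macrophages in NZO and more of these RNAs per macrophage cannot be told apart in RNA from whole tissue. Cd68, a glycoprotein of macrophage lysosomes, had 267, 344 and 233 CPM in the NZO libraries and 24.7, 24.4 and 21.3 CPM in the WSB libraries, a log2 difference of 3.58 ± 0.18 (SE, adjusted p = 1.06e-10). Adgre1, which encodes the F4/80 antigen, had 321, 441 and 305 CPM in NZO and 39.1, 26 and 34.7 CPM in WSB (3.42 ± 0.25, adjusted p = 1.1e-08). The lowest NZO mouse stood several times above the highest WSB mouse for both genes. Tyrobp, the signalling partner of Trem2, differed by 3.08 ± 0.21 and Laptm5, a lysosomal protein of white blood cells, by 2.63 ± 0.17 on the log2 scale. Mertk, a receptor for dead cells, was the member that did not pass, at 16.8, 19.3 and 21.4 CPM in NZO and 13.8, 14.7 and 10.1 CPM in WSB (adjusted p = 0.269).

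The genes of lipid-laden macrophages differed by even more in their median. Of 20 lipid-associated macrophage genes, 14 rose in NZO and none fell, with a median log2 difference of 3.07. Itgax had 279, 379.8 and 265 CPM in NZO and 6.14, 2.9 and 2.3 CPM in WSB (6.35 ± 0.54, adjusted p = 9.93e-08). The elastase Mmp12 had 515, 778 and 525 CPM in NZO and 3.14, 1.67 and 3.18 CPM in WSB (7.83 ± 0.95, adjusted p = 7.13e-06). Both were low in WSB fat, and both are among the 15 genes with the highest difference named further on. The lipid-sensing receptor Trem2 had 255, 335 and 223 CPM in NZO and 14, 17.5 and 7.49 CPM in WSB (4.38 ± 0.72, adjusted p = 0.00018). Gpnmb, a glycoprotein of lipid-loaded macrophages, had 605, 877 and 542 CPM in NZO and 4.51, 1.9 and 46.1 CPM in WSB (5.27 ± 0.81, adjusted p = 9.79e-05). WSB replicate 3 stood above the other WSB mice for Gpnmb yet far under every NZO mouse. Msr1, a scavenger receptor, differed by 4.10 ± 0.36 and the proton channel Hvcn1 by 2.82 ± 0.25. Dcstamp and Atp6v0d2, both known from cell fusion in osteoclasts and giant cells, differed by 6.73 and 5.88. Spp1, which encodes osteopontin, did not pass, with 161, 225 and 140.5 CPM in NZO and 21.3, 18.3 and 8.14 CPM in WSB (adjusted p = 0.093).

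Resident macrophage genes went both ways. Of 14 genes of resident macrophages, 4 were higher in NZO and 2 lower. The folate receptor Folr2 had 29.9, 36.8 and 24.7 CPM in NZO and 1.38, 1.13 and 1.42 CPM in WSB (4.54 ± 0.64, adjusted p = 3.77e-05). The lectin Cd209f went the other way, with 11, 8.19 and 6.85 CPM in NZO and 41.9, 41.5 and 47.4 CPM in WSB (-2.33 ± 0.68, adjusted p = 0.0135). The haemoglobin scavenger receptor Cd163 had 9.71, 13.2 and 12.6 CPM in NZO and 48.9, 34.1 and 57.2 CPM in WSB and did not pass (adjusted p = 0.0667). Cd209f did not pass without NZO replicate 2 or NZO replicate 3 (adjusted p = 0.0515 and 0.0572), and 2 resident macrophage genes were higher without WSB replicate 2. With covariates 0 of the 14 were higher and 7 lower, and Folr2 did not pass (0.83, adjusted p = 0.606). Cbr2, a carbonyl reductase, fell by 1.69 on the log2 scale on the high-fat diet and was 1.43 higher in NZO on the standard diet, and this change between diets passed its own test (adjusted p = 0.0057).

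The lysosome list moved with the macrophage lists. Of its 36 genes, 28 were higher in NZO and 1, the beta-galactosidase Glb1, was lower (-0.42 ± 0.15, adjusted p = 0.0407), with a median of 0.95. Lipa, the lipase that frees fatty acids and cholesterol inside lysosomes, had 153, 197 and 137 CPM in NZO and 25.1, 19.7 and 28.6 CPM in WSB (2.73 ± 0.19, adjusted p = 6.62e-09). Lgmn, whose promoter is printed above, had 381, 503 and 359 CPM in NZO and 71.9, 78.1 and 62.8 CPM in WSB (2.55 ± 0.17, adjusted p = 6.07e-09). Neither gene's groups came near to overlapping. Ctss, a protease of antigen-presenting cells, had 356, 483 and 322 CPM in NZO and 26.5, 28.7 and 15.6 CPM in WSB (4.04 ± 0.37, adjusted p = 2.17e-07). Gla had 11.5, 15.7 and 12.2 CPM in NZO and 3.48, 4.01 and 4.61 CPM in WSB (1.71 ± 0.17, adjusted p = 6.79e-07), and Ctsa had 779, 956 and 750.2 CPM in NZO and 302, 237 and 277 CPM in WSB (1.61 ± 0.15, adjusted p = 2.5e-07). Lamp1, with its 4 cores, had 314, 342 and 280.5 CPM in NZO and 173, 139.8 and 198 CPM in WSB (0.88 ± 0.18, adjusted p = 0.00131). Ctsd had 4767, 5131 and 4180 CPM in NZO and 2193, 1580 and 3353 CPM in WSB (0.98 ± 0.32, adjusted p = 0.0232), and Atp6v1a differed by 0.72 and Ctsl by 2.01. Ctsd did not pass without NZO replicate 1, NZO replicate 2, WSB replicate 1 or WSB replicate 2 (adjusted p = 0.0599, 0.0742, 0.0718 and 0.107), and Glb1 did not pass without NZO replicate 1, NZO replicate 2, NZO replicate 3, WSB replicate 1 or WSB replicate 3 (adjusted p = 0.0953, 0.0577, 0.122, 0.184 and 0.0543). The lysosomal enzymes Ctsb and Gusb differed by 1.73 and 2.04.

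RNA of the MiT/TFE factors Tfeb, Mitf and Tfe3 was also higher in NZO. The part of these factors in the lysosomal result was not tested. Tfeb had 47.6, 52.7 and 39.9 CPM in NZO and 20.5, 16.8 and 21.3 CPM in WSB (1.26 ± 0.17, adjusted p = 2.49e-05). Mitf had 63.4, 77.1 and 64 CPM in NZO and 34.8, 24.1 and 25.7 CPM in WSB (1.27 ± 0.36, adjusted p = 0.0108), and Tfe3 differed by 0.58 ± 0.11 (adjusted p = 0.000732). On the standard diet none of the 3 passed, with log2 differences of 0.43, -0.52 and 0.23. With the 2 covariates Mitf passed (2.52, adjusted p = 0.00284), while Tfeb (0.36, adjusted p = 0.469) and Tfe3 (0.09, adjusted p = 0.805) did not. Mitf did not pass with covariates and without the CAST/EiJ library.

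With the 2 covariates, 11 of the 16 pan-macrophage genes, 12 of the 20 lipid-associated genes and 15 of the 36 lysosomal genes were higher in NZO, and 2, 3 and 3 with covariates and without the CAST/EiJ library. Trem2 did not pass with covariates (log2 0.87, adjusted p = 0.661), and Ctsd and Lamp1 turned to -0.45 and -0.006. Leaving out any 1 of the 6 libraries left 14 pan-macrophage, 14 lipid-associated and 25 to 27 lysosomal genes higher. On the standard diet 13 of the 16 pan-macrophage genes, 12 of the 20 lipid-associated genes and 14 of the 36 lysosomal genes were higher in NZO.

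**Figure D3:**
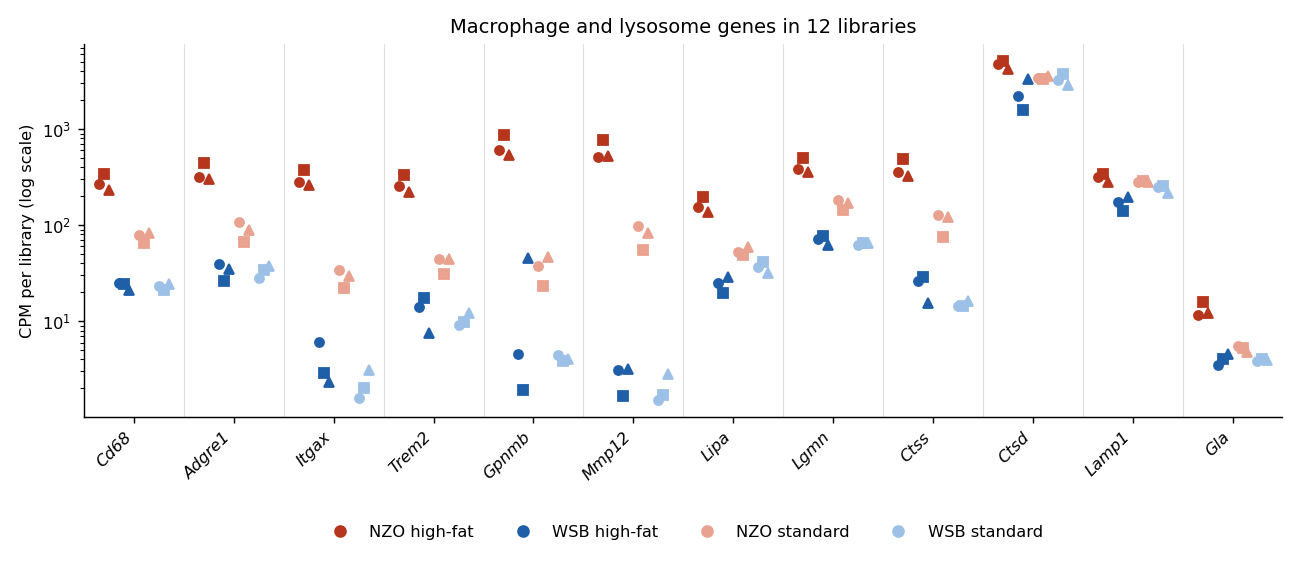
CPM per library (log axis) of 12 macrophage and lysosome genes in the high-fat NZO and WSB mice and, in paler colours, the standard-diet NZO and WSB mice, with 1 point per mouse. In each of the 12 genes the 3 high-fat NZO mice lie above the 3 high-fat WSB mice. Itgax, Gpnmb and Mmp12 show wide gaps, and Ctsd and Lamp1 narrow ones.

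Signals that draw and activate white blood cells were higher in NZO. Of 29 chemokine and cytokine genes, 20 rose and none fell, while 10 were higher with covariates and 0 with covariates and without the CAST/EiJ library. Ccl2, which draws monocytes, had 28.3, 38.8 and 19.4 CPM in NZO and 0.802, 2.35 and 1.02 CPM in WSB (4.37 ± 0.62, adjusted p = 4.27e-05). Tnf, a cytokine of inflamed fat, was low in both strains, with 2.83, 2.9 and 2.08 CPM in NZO and 0.415, 0.324 and 0.212 CPM in WSB (3.03 ± 0.59, adjusted p = 0.000795). Il1rn, the blocker of the interleukin 1 receptor, had 30.8, 35.6 and 22.7 CPM in NZO and 1.5, 1.27 and 1.84 CPM in WSB (4.27 ± 0.75). All 3 genes were separated without overlap, as were 52.3% of all genes tested. The chemokines Ccl4, Cxcl1 and Ccl11 differed by 4.39, 3.77 and 1.41, and the cytokine Tgfb1 by 2.15. Cxcl10, an interferon-driven chemokine, differed by 3.10 on the high-fat and 3.04 on the standard diet.

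Antigen presentation genes rose with them. Of 17 genes of MHC class II and antigen presentation, 10 were higher in NZO and none lower, and 4 were higher and 1 lower with covariates. H2-Eb1, the beta chain of I-E, had 239, 299 and 287 CPM in NZO and 1.63, 0.823 and 1.39 CPM in WSB (7.74 ± 0.38, adjusted p = 4.83e-11). Its difference on the standard diet was 7.09 ± 0.36. Mouse strains are known to carry different I-E alleles, so whether reads of both strains align equally to it was not tested. Cd74, the invariant chain, had 1049, 1324 and 1186 CPM in NZO and 319.5, 190.1 and 244 CPM in WSB (2.24 ± 0.25, adjusted p = 2.52e-06), and H2-Aa differed by 2.04 ± 0.27 and the peptide loader H2-DMb1 by 2.04 ± 0.27.

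Lymphocyte genes also differed, at low levels. Of 26 genes of B, T and NK cells, 14 were higher in NZO and none lower, but 2 with covariates and 10 or 11 when a library was left out. The B cell gene Ms4a1 had 3.58, 3.35 and 3.51 CPM in NZO and 0.134, 0.148 and 0.265 CPM in WSB (4.24 ± 0.76, adjusted p = 0.000378), and its partner Cd79a differed by 3.47 ± 0.61. Il7r, a receptor of lymphocytes and some myeloid cells, had 14.4, 21.6 and 13.9 CPM in NZO and 1.07, 0.58 and 0.622 CPM in WSB (4.45 ± 0.40, adjusted p = 1.81e-07). Cd3e, which defines T cells, had 0.492, 0.738 and 0.503 CPM in NZO and 0.455, 0.324 and 0.357 CPM in WSB and did not pass (adjusted p = 0.263), although Cd4 did (2.15 ± 0.29). Of 8 lymph node genes tested, 3 were higher in NZO, and the list summed to 11.7, 15 and 15.3 CPM in NZO and 7.88, 5.24 and 6.67 CPM in WSB. The part of lymph node tissue in the lymphocyte result was not tested.

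The interferon response genes that passed were all higher in NZO, while complement and acute phase genes went both ways. Over all genes tested, 16.7% were higher and 19.9% lower. Of 24 interferon response genes, 7 were higher in NZO and none lower, with Mx1, an antiviral GTPase, at 97.6, 80.9 and 92.6 CPM in NZO and 5.44, 9.24 and 2.54 CPM in WSB (3.98 ± 0.91, adjusted p = 0.00278). Of 18 acute phase and complement genes, 9 were higher and 2 lower. The complement component C4b had 557, 520.2 and 479.7 CPM in NZO and 30.4, 34.9 and 32.1 CPM in WSB (4.00 ± 0.22, adjusted p = 3.41e-10), and 3.85 ± 0.22 on the standard diet. C1qa, C1qb and C1qc, the chains of the complement starter C1q, differed by 2.17, 2.79 and 3.04. Hp, which encodes haptoglobin and is also made by fat cells, had 811, 763 and 575 CPM in NZO and 38.9, 31.8 and 40.9 CPM in WSB (4.27 ± 0.96, adjusted p = 0.00256). C4b has a close copy, C4a, so its count is uncertain. The lower pair was Orm2, an acute phase carrier (-4.43 ± 0.98), and Lcn2, a siderophore binder, which had 4.49, 5.7 and 2.7 CPM in NZO and 55.7, 303 and 0.781 CPM in WSB. Lcn2 in WSB ranged from below the NZO mice to far above them, so its groups overlapped (adjusted p = 0.0498), and it did not pass without NZO replicate 1, NZO replicate 2, NZO replicate 3, WSB replicate 1 or WSB replicate 2 (adjusted p = 0.124, 0.113, 0.137, 0.0552 and 0.242). With covariates, 3 interferon genes were higher and 1 lower, and 4 acute phase and complement genes higher and 1 lower. The sign turned with covariates for Hp (-2.05) and Lcn2 (3.54).

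Few fat cell identity genes passed the test, although their summed level, given above, was higher in every NZO mouse than in any WSB mouse. Of 20 adipocyte identity genes, 1 was higher in NZO and 2 were lower, with a median of 0.128. Adiponectin (Adipoq) had 766, 599 and 997 CPM in NZO and 1241, 828 and 1113 CPM in WSB, which overlapped (adjusted p = 0.742). The fatty acid binding protein Fabp4 had 3010, 2568 and 3284 CPM in NZO and 2444, 1632 and 2404 CPM in WSB (adjusted p = 0.732), and the master regulator Pparg differed by 0.20 (adjusted p = 0.836). The complement protease Cfd, or adipsin, was among those lower in NZO, with 220, 142 and 290.1 CPM in NZO and 2443, 1573 and 1685 CPM in WSB (-3.13 ± 1.09, adjusted p = 0.0325). The other was Cidea, a lipid droplet protein (-2.92 ± 0.96), and the higher one was the transcription factor Cebpb (0.86 ± 0.27). Cfd did not pass without NZO replicate 1, NZO replicate 2, NZO replicate 3 or WSB replicate 1 (adjusted p = 0.0894, 0.108, 0.0695 and 0.0665), and Cidea did not pass without NZO replicate 1, NZO replicate 2, NZO replicate 3 or WSB replicate 3 (adjusted p = 0.0693, 0.0876, 0.0616 and 0.105). With covariates 6 of the 20 genes were lower, and Cebpb, Fabp4 and Pparg stood at -0.49, -5.56 and -3.41. Cebpb did not pass without NZO replicate 1, NZO replicate 2, WSB replicate 1 or WSB replicate 2 (adjusted p = 0.0699, 0.0568, 0.06 and 0.0568), which left 0 genes higher.

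Leptin was among the hormone genes higher in NZO. Of 20 genes of adipocyte hormones and fat expansion, 6 were higher in NZO and 4 lower. Leptin (Lep) had 1414, 1411 and 1300 CPM in NZO and 57.1, 49.5 and 55 CPM in WSB (4.67 ± 1.21, adjusted p = 0.00635). Lep had 1381, 1488 and 1224 CPM in standard-diet NZO and 93.7, 40.8 and 57.4 CPM in standard-diet WSB (4.42 ± 1.19). Mest, a marker of fat cell enlargement, had 532, 404 and 479.8 CPM in NZO and 9.8, 12.5 and 8.63 CPM in WSB (5.52 ± 1.26, adjusted p = 0.00285). The Wnt blocker Sfrp5, known to rise in obese mouse fat, had 18, 17.9 and 26.5 CPM in NZO and 0.294, 0.351 and 0.543 CPM in WSB (5.71 ± 1.63, adjusted p = 0.0114). For these 3 genes no mouse of one strain came near the range of the other. Metrnl, a secreted factor of fat and macrophages, differed by 2.08 ± 0.16 on the high-fat diet and 0.73 ± 0.16 on the standard diet, and the difference between diets passed its test (adjusted p = 0.00384). Chemerin (Rarres2) differed by 1.59 ± 0.25. Angiotensinogen (Agt) was lower in NZO, with 0.888, 0.845 and 1.64 CPM in NZO and 19.9, 14.8 and 15.1 CPM in WSB (-3.88 ± 0.64, adjusted p = 0.000178). With covariates 2 of the 20 genes were higher and 4 lower, and Lep (log2 0.47, adjusted p = 0.937), Mest (adjusted p = 0.493) and Sfrp5 (adjusted p = 0.723) did not pass. Without NZO replicate 1 or WSB replicate 1, 2 of the 20 genes were lower.

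Fatty acid synthesis was lower in NZO for part of its genes. Of 22 genes of fatty acid and triglyceride synthesis, none rose and 7 fell, with a median of -0.645, and 13 fell on the standard diet. Of all genes tested, 19.9% were lower on the high-fat diet and 12.4% on the standard diet. The elongase Elovl6 had 21.6, 15.3 and 17.1 CPM in NZO and 330.5, 130.3 and 639.6 CPM in WSB (-4.35 ± 0.71, adjusted p = 0.000177). The acetyl-CoA carboxylase Acacb had 73, 68.1 and 78.1 CPM in NZO and 640, 350.1 and 958 CPM in WSB (-3.15 ± 0.84, adjusted p = 0.00771), and its sister Acaca differed by -2.69 ± 0.84 (adjusted p = 0.0181). Thrsp, a regulator of lipogenesis, had 28, 26.5 and 34.3 CPM in NZO and 389, 183 and 656 CPM in WSB (-3.79 ± 1.11, adjusted p = 0.0134). In each of these genes WSB replicate 2 was the lowest WSB mouse and still above all NZO mice. The fatty acid synthase Fasn had 1592, 1230 and 1159 CPM in NZO and 5944, 2701 and 9207 CPM in WSB and just missed the threshold (adjusted p = 0.0577), and the citrate lyase Acly did not pass either (adjusted p = 0.0843). Fasn passed on the standard diet (-2.69 ± 0.88, adjusted p = 0.0297), with 2073, 4551 and 3133 CPM in NZO and 24200, 20070 and 18610 CPM in WSB. The desaturase Scd1 had 12340, 9012 and 13650 CPM in NZO and 18170, 12030 and 24250 CPM in WSB, with overlap, and did not pass (adjusted p = 0.622). The count of lower genes fell to 3, 3 and 4 of the 22 without NZO replicate 1, 2 or 3, and to 4 without WSB replicate 3. Over all genes these fits called 2606, 2610, 2751 and 3756 lower. With covariates 11 of the 22 were lower, beside 7.2% of all genes tested. Acaca did not pass without NZO replicate 1, NZO replicate 2, NZO replicate 3 or WSB replicate 3 (adjusted p = 0.0541, 0.0631, 0.0579 and 0.0588), Thrsp did not pass without NZO replicate 1 or NZO replicate 2 (adjusted p = 0.0508 and 0.0523), and Fasn passed without WSB replicate 2 (adjusted p = 0.0475).

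**Figure D4:**
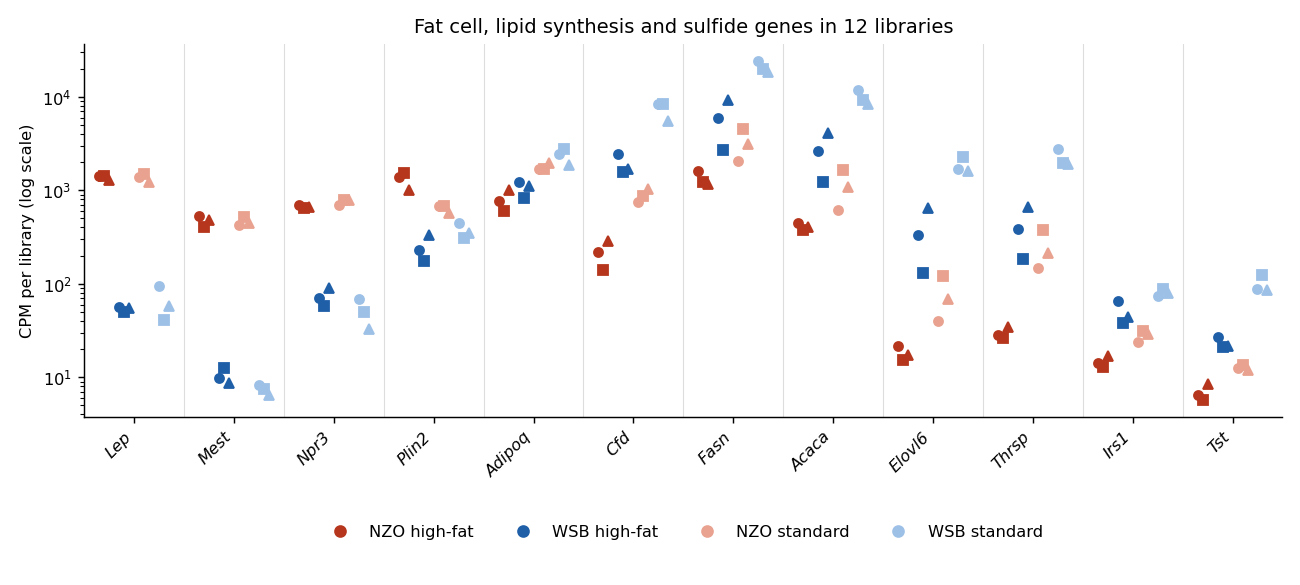
CPM per library (log axis) of 12 genes of fat cell hormones, lipid synthesis, insulin signalling and sulfide oxidation in the same 4 groups of 3 mice, with 1 point per mouse. Lep, Mest, Npr3 and Plin2 are higher in the high-fat NZO mice than in the high-fat WSB mice, Cfd and the genes from Fasn to Tst are lower in them, and Adipoq overlaps.

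Lipid droplet and lipolysis genes mostly did not pass: 2 of 22 were higher in NZO and 1 was lower. Plin2, a droplet coat protein of many cell types, had 1400, 1542 and 1018 CPM in NZO and 231, 173 and 329.6 CPM in WSB (2.43 ± 0.46, adjusted p = 0.000632). Npr3, the clearance receptor for natriuretic peptides, had 705, 648 and 663 CPM in NZO and 70.1, 57.6 and 89.6 CPM in WSB (3.21 ± 0.83, adjusted p = 0.00625). Of 20 genes of insulin signalling and glucose uptake, 2 were higher and 1 was lower. Irs1, the first docking protein of the insulin receptor in fat, had 14.4, 12.8 and 17 CPM in NZO and 66, 38.3 and 44.2 CPM in WSB (-1.75 ± 0.31, adjusted p = 0.000347), and it was lower with covariates as well (-3.51, adjusted p = 0.000536). Grb14, an inhibitor of that receptor, had 31.1, 22.3 and 24.9 CPM in NZO and 5.76, 6.92 and 11.8 CPM in WSB (1.68 ± 0.36, adjusted p = 0.0017), and the kinase subunit Pik3cb differed by 0.56 ± 0.18. Pik3cb did not pass without NZO replicate 1, NZO replicate 3, WSB replicate 1 or WSB replicate 2 (adjusted p = 0.0671, 0.0603, 0.0517 and 0.0923). Plin2, Npr3 and Grb14 did not pass with covariates (adjusted p = 0.807, 0.835 and 0.122), and Pik3cb turned to -0.20. With covariates 10 lipolysis and droplet genes were lower and 0 higher, and 6 insulin signalling genes lower and 2 higher. The lipolysis and droplet gene lower in NZO was Cidea, described above, and without NZO replicate 1, NZO replicate 2, NZO replicate 3 or WSB replicate 3 none was lower.

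Mitochondrial lists showed small differences, mostly below 0. Of 29 oxidative phosphorylation genes, none was higher and 3 were lower, with a median of -0.445. These were the cytochrome oxidase subunits Cox5a (-0.68 ± 0.25) and Cox6c (-0.80 ± 0.18) and the coactivator Ppargc1a (-1.88 ± 0.36). The count moved with the fit: 15 were lower when the CAST/EiJ library was left out of the fit, 11 with the 6 libraries alone and 22 with covariates. Of 25 genes of fatty acid oxidation and branched-chain amino acid breakdown, 1 was higher and 1 lower, the importer Cpt1a (0.98 ± 0.20) and the thiolase Acaa2 (-0.73 ± 0.28), and 16 were lower without the CAST/EiJ library and 21 with covariates. Cox5a did not pass without NZO replicate 1, NZO replicate 2, NZO replicate 3 or WSB replicate 3 (adjusted p = 0.0756, 0.104, 0.0952 and 0.165), and Acaa2 did not pass without NZO replicate 1, NZO replicate 2, NZO replicate 3 or WSB replicate 3 (adjusted p = 0.103, 0.121, 0.0811 and 0.416). Of 16 brown and beige fat genes, 1 was higher and 7 were lower. Among those 7, Dio2, which activates thyroid hormone, had 0.574, 0.738 and 0.392 CPM in NZO and 79.9, 119 and 3.45 CPM in WSB, and Ckmt1, a creatine kinase of epithelium as well as fat, had 0.041, 0.255 and 0 CPM in NZO and 67.6, 197 and 37.6 CPM in WSB. WSB replicate 2, the library high for neuronal genes, was the highest for both, and the part of other tissues in them was not tested. The uncoupler Ucp1 had 12.8, 9.76 and 13.3 CPM in NZO and 22.8, 43.9 and 128 CPM in WSB and did not pass (adjusted p = 0.18). Without NZO replicate 2, NZO replicate 3 or WSB replicate 3, 4 of the 16 genes were lower, and with covariates 2 were lower and 0 higher. Tmem26, the higher gene (1.39 ± 0.51), did not pass without NZO replicate 1, NZO replicate 2, NZO replicate 3, WSB replicate 2 or WSB replicate 3 (adjusted p = 0.0741, 0.119, 0.0557, 0.124 and 0.145).

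Sulfide oxidation genes included the rhodanese Tst, a mitochondrial sulfur transferase reported to favour leanness when abundant in mouse fat cells. Tst had 6.45, 5.73 and 8.54 CPM in NZO and 27.2, 21.3 and 21.6 CPM in WSB (-1.76 ± 0.50, adjusted p = 0.0112). Its standard-diet values were 12.6, 13.4 and 11.9 CPM in NZO and 87.5, 125 and 85.7 CPM in WSB (-2.97 ± 0.52, adjusted p = 0.000411), and no mouse of either strain reached the other strain's range on the same diet. On the high-fat diet 52.3% of all genes tested were likewise without overlap. Of the 13 genes tested in this list, 4 were lower in NZO and 1 was higher. Suox, which oxidises sulfite, differed by -1.33 ± 0.28 (adjusted p = 0.00142), the persulfide dioxygenase Ethe1 by -0.92 ± 0.26 (adjusted p = 0.0115) and the synthase Cbs by -3.78 ± 0.73 (adjusted p = 0.000728). Cth, which makes cysteine and sulfide, was higher, with 15.2, 12.8 and 10.9 CPM in NZO and 9.04, 4.09 and 5.16 CPM in WSB (1.08 ± 0.36, adjusted p = 0.0242). The other members did not pass: Sqor, which starts sulfide oxidation, at -0.51, Mpst at -0.02, Cdo1 at -0.55, Csad at -0.71, Tstd2 at -0.16, Tstd3 at 0.29, Got1 at -1.16 and Bhmt at -2.53. With covariates 5 were lower and none higher, with Tst among them (-3.88, adjusted p = 0.0195). Tst did not pass with covariates and without the CAST/EiJ library. The sign turned with covariates for Cth (-0.67) and Ethe1 (0.025). Cth did not pass without NZO replicate 1, NZO replicate 2, WSB replicate 2 or WSB replicate 3 (adjusted p = 0.0848, 0.055, 0.104 and 0.076), Ethe1 did not pass without WSB replicate 3 (adjusted p = 0.0803), and Got1 passed without WSB replicate 1 (adjusted p = 0.0151).

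Matrix and vessel genes leaned towards NZO. Of 26 extracellular matrix genes, 10 were higher and 2 lower. The basement membrane collagens Col4a1 and Col4a2 had 1036, 967 and 929 CPM and 781, 739.9 and 687 CPM in NZO, against 276, 245 and 313 CPM and 219, 192 and 233 CPM in WSB (1.81 ± 0.22 and 1.78 ± 0.25). Sparc, a collagen-binding protein known from growing fat, had 6328, 5401 and 6265 CPM in NZO and 2078, 2226 and 2174 CPM in WSB (1.47 ± 0.24, adjusted p = 0.000186), and the fibroblast protease Fap differed by 1.37 ± 0.21. The fibrillar collagen Col1a2 was lower, with 740.3, 693 and 577 CPM in NZO and 1414, 2017 and 1111 CPM in WSB (-1.18 ± 0.38), and so was Acta2, which is also a smooth muscle marker (-3.96 ± 1.07). Of 21 matrix proteases and inhibitors, 10 were higher and 1 lower. Mmp3 had 21, 27.7 and 22 CPM in NZO and 1.62, 0.243 and 0.252 CPM in WSB (5.06 ± 0.60, adjusted p = 5.43e-06), and Adam8, a sheddase of white blood cells, 345, 434 and 299.9 CPM in NZO and 13.3, 10.3 and 11.3 CPM in WSB (4.95 ± 0.53). The gelatinase Mmp9 was lower, with 1.61, 1.7 and 2.42 CPM in NZO and 20.1, 11.1 and 20.2 CPM in WSB (-3.16 ± 0.56). Of 18 endothelial genes, 9 were higher and 1 lower, with modest gaps such as 1.06 ± 0.25 for the junction protein Cdh5 and 0.69 ± 0.18 for Pecam1. The lower endothelial gene was Prox1, known from lymph vessels, with 0.328, 0.201 and 0.21 CPM in NZO and 5.76, 5.23 and 1.92 CPM in WSB. Col1a2 did not pass without NZO replicate 2, NZO replicate 3 or WSB replicate 2 (adjusted p = 0.0595, 0.0818 and 0.0976), and Prox1 did not pass without NZO replicate 1, NZO replicate 2, NZO replicate 3 or WSB replicate 1 (adjusted p = 0.0659, 0.0852, 0.0818 and 0.0504). With covariates the higher counts were 1 for matrix, 3 for proteases and 0 for endothelium, and Cdh5 and Pecam1 stood at -0.05 and -0.007.

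Stress and timing lists went both ways, beside 16.7% of all genes tested higher and 19.9% lower. The shares of the endoplasmic reticulum and heat shock, clock and cholesterol lists were near or below these. Of 22 immediate early genes, 7 were higher and 2 lower, with Egr2, a macrophage activation factor, at 44.5, 55.4 and 31.1 CPM in NZO and 4.59, 6.08 and 3.69 CPM in WSB (3.19 ± 0.47) and Klf6 at 1.35 ± 0.16. With covariates 4 of the 22 were higher and 0 lower, and Egr2 did not pass (adjusted p = 0.24). Of 24 genes of the endoplasmic reticulum and heat shock, 3 were higher and 5 lower. Atf3 had 41.5, 55.8 and 35.5 CPM in NZO and 2.65, 1.33 and 1.95 CPM in WSB (4.48 ± 0.44, adjusted p = 6.27e-07), while the chaperone Hspa1a differed by -1.81 and its near-identical copy Hspa1b was lower too, which leaves both counts uncertain. Without NZO replicate 3, 3 of the 24 were lower, and with covariates 1 was higher and 2 lower. Of 24 antioxidant and glutathione genes, 2 were higher and 8 lower, and 4 were lower without WSB replicate 3. The haem oxygenase Hmox1 had 62.6, 68 and 45.9 CPM in NZO and 11.1, 13 and 15.5 CPM in WSB (2.16 ± 0.31), and the extracellular dismutase Sod3 244, 212 and 224 CPM in NZO and 37, 24.5 and 40.7 CPM in WSB (2.73 ± 0.82). Sod3 did not pass without WSB replicate 2 (adjusted p = 0.0563), and its sign turned with covariates (-1.85), where Hmox1 did not pass (adjusted p = 0.414) and 0 antioxidant genes were higher and 6 lower. The transferase Gstm1 had 64.3, 71.5 and 78.2 CPM in NZO and 176, 109 and 2434 CPM in WSB (-3.67 ± 0.79), with the peak in the WSB library that is high for urothelium. Of 19 clock genes 2 were higher and 4 lower, and of 24 proliferation genes 1, Pcna, was higher (0.85 ± 0.14). On the standard diet 15 of the 24 proliferation genes were higher in NZO and none lower, with a median of 1.44, and none of the 24 passed the test of the difference between diets. Leaving out 1 library at a time gave 0 or 1 clock genes higher and 1 to 5 lower, and with covariates 1 was higher and 3 lower. Of 23 cholesterol synthesis and uptake genes 3 were higher and 3 lower, and 0 to 3 were higher and 1 to 4 lower with a library left out, and 0 higher and 1 lower with covariates. Among them the squalene synthase Fdft1 differed by 0.45. Fdft1 did not pass without NZO replicate 1, NZO replicate 2, NZO replicate 3, WSB replicate 1 or WSB replicate 2 (adjusted p = 0.083, 0.0894, 0.0746, 0.131 and 0.0713).

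Genes named in work on NZO obesity and diabetes were also measured. Of the 14 tested, 3 were higher and 6 lower in NZO, beside 16.7% and 19.9% of all genes tested. The lower count was 3, 2 and 3 without NZO replicate 1, 2 or 3, and 4 and 3 without WSB replicate 1 or 3. Over all genes these fits called 2606, 2610, 2751, 3675 and 3756 lower. The nucleic acid sensor Ifi202b had 42, 41.1 and 39.3 CPM in NZO and 9.15, 9.2 and 5.11 CPM in WSB (2.38 ± 0.59, adjusted p = 0.0046). The cholesterol exporter Abcg1 had 47, 53.7 and 46.9 CPM in NZO and 12.9, 13.3 and 13.1 CPM in WSB (1.91 ± 0.34, adjusted p = 0.000415). Nnt, the mitochondrial transhydrogenase, had 42.5, 42.1 and 47.7 CPM in NZO and 119, 90.2 and 118 CPM in WSB (-1.31 ± 0.17, adjusted p = 1.52e-05). All 3 separated the strains without overlap, which 52.3% of all genes tested did. The leptin receptor Lepr differed by -1.65 ± 0.58 (adjusted p = 0.033) and the lipid carrier Pctp by -0.87 ± 0.27 (adjusted p = 0.0171). Lepr did not pass without NZO replicate 1, NZO replicate 2, NZO replicate 3, WSB replicate 1 or WSB replicate 3 (adjusted p = 0.104, 0.086, 0.0622, 0.102 and 0.0697), nor Pctp without NZO replicate 2, NZO replicate 3, WSB replicate 1 or WSB replicate 3 (adjusted p = 0.0556, 0.0587, 0.0578 and 0.0742). With covariates 2 of the 14 were higher and 3 lower, Lepr stood at 0.19 and Igfbp2 at 3.09, Ifi202b and Abcg1 did not pass (adjusted p = 0.202 and 0.191), and Nnt did (adjusted p = 0.0286). Nnt did not pass with covariates and without the CAST/EiJ library. Igfbp2, a binder of insulin-like growth factors, had 0.642, 1.37 and 2.85 CPM in NZO and 1.8, 17.6 and 145 CPM in WSB, which overlapped, with the peak in WSB replicate 3, and it did not pass without NZO replicate 1, NZO replicate 2 or WSB replicate 3 (adjusted p = 0.06, 0.055 and 0.131). Ifi202b belongs to a family of close copies, so its count is uncertain.

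Among the 15 genes with the highest log2 difference that passed the filters on level, overlap and spread, 13 were also higher on the standard diet and 13 with covariates. They were Gpr50, Tph2, Itgad, Myh15, Mmp12, Tm4sf19, H2-Eb1, Slc5a7, Cyp4f16, S100a8, Dcstamp, Itgax, Atp6v0d2, Sfrp5 and Cdkl4. With covariates and without the CAST/EiJ library, Itgad, H2-Eb1, Cyp4f16 and Itgax passed and the others of the 15 did not. Itgad, an integrin of tissue macrophages, had 611, 490.1 and 358 CPM in NZO and 1.23, 0.782 and 0.556 CPM in WSB (9.15 ± 0.77, adjusted p = 9.17e-08). Tph2, the serotonin enzyme known from neurons, had 65.9, 61.6 and 37.5 CPM in NZO and 0.0134, 0.135 and 0.0265 CPM in WSB (9.84 ± 1.15, adjusted p = 4.82e-06), and a log2 difference of 10.31 on the standard diet. On the high-fat diet the neuronal marker sum was 86.1, 79.7 and 108 CPM in NZO and 24.9, 2758 and 137 CPM in WSB. On the standard diet it was 128, 116 and 111 CPM in NZO and 12.5, 12.7 and 19.1 CPM in WSB. The part of neuronal RNA in Tph2 was not tested. Cyp4f16, a fatty acid hydroxylase family member, had 29.3, 31.1 and 30.4 CPM in NZO and 0.134, 0.148 and 0.185 CPM in WSB (7.58 ± 0.20, adjusted p = 1.31e-15) and 7.17 ± 0.20 on the standard diet. Gpr50, an orphan receptor related to melatonin receptors, had 2803 counts over the NZO libraries and 2 over the WSB libraries, a ratio scaled for depth of 1435 with a counting interval of 396.9 to 11850. Slc5a7, a choline transporter, and S100a8, a calcium binder of neutrophils, differed by 7.67 and 7.52.

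From the genes with the lowest log2 difference, 13 are named: Atp10b, Itgb6, Oit1, Inava, Fut9, Fermt1, Kcnk1, Lad1, Igsf5, Rab25, Dsg2, Ap1m2 and Dsp. Of these 13, edgeR called 0 lower in NZO on the standard diet and 0 with covariates. Desmoplakin (Dsp), a cell junction protein of epithelium, had 0.164, 0.362 and 0.252 CPM in NZO and 37, 45.5 and 81.1 CPM in WSB, beside epithelial sums that separate the strains in the same way. Atp10b, Itgb6 and Oit1 had no count in NZO, so they were at least 1013-fold, 477.3-fold and 406-fold lower in NZO, taking 3 counts over the group as the floor. In 5 further genes with low values 1 WSB library stood more than 4 times above another, and they are given apart. Itgb6 did not pass without NZO replicate 1 or NZO replicate 2 (adjusted p = 0.0503 and 0.0506), and Ap1m2, Inava and Rab25 also lost their call without 1 NZO library. Mpped1, Csrnp3, Syt16 and Cldn8 had no count in NZO and Slc44a4 had 1, and Mpped1 had 86 CPM in WSB replicate 2, against 0.0134 and 0.0132 CPM in the other WSB mice. Mpped1 did not pass without WSB replicate 2 (adjusted p = 0.439).

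Genes lower in NZO on both diets were taken as a further set, chosen after the values were seen. The choice required a call on each diet, so their lower level in both sets of mice follows from it. The 13 named from those with the lowest high-fat difference were Ncam2, Syndig1, Slc25a48, Zfp979, Cwc22, Kcnd3, Elovl3, Sorcs2, Eci3, Cnksr1, Cgn, Orm2 and Fez1, and 9 of them were lower with covariates as well. With covariates and without the CAST/EiJ library, Zfp979, Cwc22, Eci3, Orm2 and Fez1 passed and the others of the 13 did not. Cwc22, a splicing factor, had 55.1, 58.2 and 63.3 CPM in NZO and 2926, 2500 and 2567 CPM in WSB (-5.50 ± 0.13, adjusted p = 1.16e-16), with -5.51 ± 0.13 on the standard diet. Wild-derived mice including WSB are known to carry many copies of a segment that holds Cwc22, so reads may be shared between near-identical copies and its count is uncertain. Zfp979, a zinc finger protein, had 0.369, 0.215 and 0.28 CPM in NZO and 17.9, 11.9 and 16.4 CPM in WSB (-5.74 ± 0.30), and Fez1, a transport adaptor, 3.02, 3.54 and 3.47 CPM in NZO and 63.7, 85.1 and 36.1 CPM in WSB (-4.20 ± 0.26). Eci3, an isomerase of fatty acid breakdown, had 0.574, 0.309 and 0.741 CPM in NZO and 13.6, 10.4 and 12.4 CPM in WSB (-4.49 ± 0.36, adjusted p = 4.38e-08). For these 4 genes the strains did not overlap on either diet, and on the high-fat diet the filter required this. The potassium channel Kcnd3 differed by -4.90 ± 0.39 on the high-fat and -2.91 ± 0.36 on the standard diet, a change that passed its test (adjusted p = 0.0242).

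The marker lists of other tissues, kept apart, held mostly genes lower in NZO. Of 17 epithelial genes tested 16 were lower, of 14 smooth muscle genes 12, of 12 neuronal genes 11, of 5 urothelial genes 4 and of 8 reproductive tract genes 6, with none higher. On the standard diet 0 of the epithelial genes and 2 of the smooth muscle genes were lower. Without WSB replicate 2, 2 neuronal genes were lower and 1 was higher, and without WSB replicate 3, 3 urothelial genes were lower. Without NZO replicate 1, 2 or 3, and without WSB replicate 2, the reproductive tract count was 1, 3, 1 and 4. Of 11 Schwann and myelin genes 5 were lower and 1, Pmp22, was higher (0.74 ± 0.28; not without any 1 of the 6 libraries), and 3 were lower without WSB replicate 2. Of 7 mesothelial genes 3 were lower, and 2 without NZO replicate 1 or WSB replicate 1. Of 10 kidney genes 3 were lower and 1 was higher, and without any of NZO replicates 1, 2 and 3 or WSB replicate 3 the lower count was at most 1. Of 12 liver genes 7 were lower, and 2 without NZO replicate 2, NZO replicate 3 or WSB replicate 3 and 4 without NZO replicate 1. Cyp2e1, an ethanol-oxidising enzyme of liver and fat, had 17.2, 6.42 and 16.9 CPM in NZO and 1433, 1100 and 1002 CPM in WSB (-6.45 ± 1.24, adjusted p = 0.000738), while albumin (Alb) had 19.8, 10.3 and 4.24 CPM in NZO and 52.1, 42.5 and 166 CPM in WSB. None of 17 skeletal muscle, 6 subcutaneous depot and 5 erythroid genes passed, and of the 2 mammary secretory genes tested 1, Elf5, was lower (-3.68 ± 1.39), but not without NZO replicate 1, NZO replicate 2, NZO replicate 3 or WSB replicate 3 (adjusted p = 0.0998, 0.109, 0.141 and 0.657). Alb did not pass without NZO replicate 2, NZO replicate 3 or WSB replicate 3 (adjusted p = 0.079, 0.0936 and 0.114).

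The test of whether the strain difference changed with diet called 395 genes with a more positive difference on the high-fat diet (1.97%) and 594 with a more negative one (2.96%), 747 of them among the genes called on the high-fat diet. The positive calls held 7 of the 16 pan-macrophage genes and 11 of the 36 lysosomal genes, with none negative in either list. Cd68 had 79.8, 65.8 and 82.5 CPM in NZO and 23.2, 20.9 and 24.4 CPM in WSB on the standard diet, so its strain difference was larger by 1.85 ± 0.24 on the high-fat diet (adjusted p = 0.000541). Adgre1 changed by 2.03 ± 0.32 (adjusted p = 0.00242) and Itgax by 2.67 ± 0.63 (adjusted p = 0.0216). Of the 22 fatty acid and triglyceride synthesis genes and the 20 adipocyte identity genes, none passed this test. Of 12 liver genes 10 were negative, beside standard-diet levels of Alb of 487, 878 and 75.8 CPM in NZO and 21.9, 29.8 and 13.3 CPM in WSB. Leaving out the high-fat NZO replicate 1, 2 or 3 gave 214, 140 and 252 positive genes, and 241, 116 and 226 negative ones. Without the standard-diet NZO replicate 1 or 2, 324 and 212 genes were negative, and without the high-fat WSB replicate 1 or 3 the negative count was 1151 and 1059. Without the standard-diet NZO replicate 2 or 3, or WSB replicate 1 or 2, 173, 239, 189 and 217 genes were positive, and without the standard-diet WSB replicate 1, 2 or 3, 165, 222 and 365 were negative. The counts also rest on the fit: with covariates 179 genes were positive and 110 negative, and with covariates and without the CAST/EiJ library 4 and 2.

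**Figure D5:**
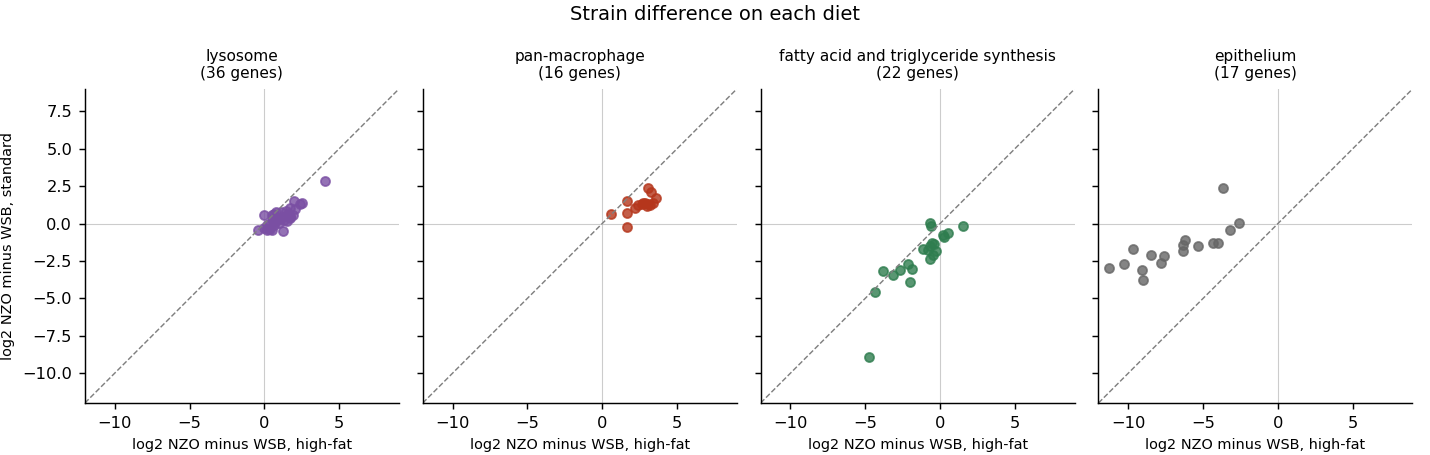
Log2 difference NZO minus WSB of each tested gene of 4 lists, on the high-fat diet (horizontal) and on the standard diet (vertical), with the dashed line where both are equal. Most lysosome and pan-macrophage genes lie right of 0 and below the line, fatty acid and triglyceride synthesis genes lie near or below the line and mostly under 0, and epithelial genes lie far to the left of the line.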

How the data were processed

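RNA-seq of inguinal fat from 24 mice (8 groups of 3) was deposited as estimated counts per gene. Per the submitters' processing notes, the authors' tools were CASAVA 1.8.0, RSEM 1.2.1 and Bowtie 0.12.8 with NCBIM37/mm9, and the deposited expected counts are RSEM estimates given as whole numbers; whether the counting used strand is not given in the sources used here. The authors' upper-quartile table was not used. Each library held 47651641 to 84009032 counts, 1.515% to 2.352% of them under identifiers with no symbol. Of 37991 genes, 32919 identifiers (86.65%) matched a symbol.

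Groups came from the labels. Genes passing filterByExpr (20035, with 17956 removed) were fitted in edgeR 4.0.16 (R 4.3.3), with TMM scaling, 1 coefficient per strain and diet and 16 residual degrees of freedom (14 with the 2 covariates). The biological coefficient of variation was 40.06%. Tests were quasi-likelihood F tests, Benjamini-Hochberg adjusted over all genes tested, threshold 0.05, log2 differences as NZO minus WSB with SE. CPM of single genes are TMM scaled and list sums are over raw library totals. Alternatives used limma 3.58.1 and DESeq2 1.42.0. The procedure was tested on simulated data.

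The named genes were the 15 highest and 15 lowest passing differences (no overlap, mean of at least 5 CPM in the higher group, spread in it of at most 4 times, no marker gene), 5 failing only that spread, up to 4 per list and direction by adjusted p, all sulfide oxidation genes, the leading markers and the 8 smallest p for the difference between diets. Genes named outside this rule were chosen after their values were seen, among them Adipoq, Fasn, Acaca, Trem2, Gpnmb, Tfeb, Mitf, Ccl2, Tnf, Lamp1, Ctsd, Gla and Hp. The comparison and the 28 pathway and 14 marker lists (735 genes, 5 not analysed here) were chosen with earlier results of these data known. Some genes that this rule picks are not reported here. Counting intervals cover counting error only.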

Additional observations from a re-analysis of the deposited data

Results flagged for a closer look

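In 8 genes the strain difference itself changed with diet, with the smallest adjusted p by edgeR's test of the high-fat minus the standard-diet difference. Zranb3, a DNA repair helicase, changed by 3.42 on the log2 scale (adjusted p = 0.000173), with 113, 146 and 91.6 CPM in NZO and 7.76, 8.21 and 5.94 CPM in WSB on the high-fat diet, against 9.18, 9.32 and 8.34 CPM in NZO and 4.95, 5.87 and 7.05 CPM in WSB on the standard diet. Lipa, the lysosomal lipase, changed by 2.17 (adjusted p = 0.000473), with 53.1, 49.1 and 58.9 CPM in NZO and 36.4, 40.9 and 31.8 CPM in WSB on the standard diet. C3ar1, the receptor for a complement fragment, changed by 2.43 and Lpxn, an adhesion protein of white blood cells, by 2.24. The other four were Apobec1, a cytidine deaminase, at 2.23, the tetraspanin Cd53 at 1.79, the lysosomal nuclease Dnase2a at 1.77 and Tnfrsf1b, a receptor for Tnf, at 1.66. All 8 changes were positive, that is, the NZO minus WSB difference was larger on the high-fat diet.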

How the results depend on the processing

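Scaling by relative log expression or upper quartile, dropping the filter on low counts and DESeq2 each left the high-fat counts of genes higher and lower in NZO within 1.5 times of 3346 and 3982, and changed the sign of none of the named genes. The median log2 difference of all genes was -0.087 with TMM and -0.100 and -0.107 with the other scalings. Leaving out 1 high-fat library gave 2622 to 3157 genes higher and 2606 to 3756 lower, and on the standard diet 2306 to 2552 higher and 1662 to 2005 lower. For the difference between diets, leaving out 1 library gave 140 to 515 positive and 116 to 1151 negative genes. DESeq2 gave 785 positive and 1231 negative, the fit on the 12 NZO and WSB libraries 1104 and 1008, and the fit without CAST/EiJ high-fat replicate 1, chosen with earlier results known, 1334 and 1763; that fit also raised the genes lower in NZO on the standard diet to 3938. The 2 covariates gave 1271 higher and 1442 lower genes on the high-fat diet and 179 positive and 110 negative changes between diets. The covariates without that library, an alternative chosen after seeing the data, gave 106 and 72, and 4 and 2. The cause was not tested.

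The sign of some named genes turned. With the 2 covariates these log2 differences became Inava 1.77, Kcnk1 0.80, Lad1 0.36, Rab25 2.86, Dsg2 0.89, Ap1m2 2.34, Dsp 0.77, Mpped1 2.01, Syt16 7.62, Cldn8 1.52, Cebpb -0.49, Mvk -0.42, Pik3cb -0.20, Got1 0.37, Cth -0.67, Tstd3 -0.059, Ethe1 0.025, Stab1 -1.15, Mrc1 -1.43, Gbp2 -0.029, Trib3 -0.13, Ier3 0.28, Sod3 -1.85, Igfbp2 3.09, Lcn2 3.54, Cdh5 -0.05, Tie1 -0.15, Emcn -0.056, Pecam1 -0.007, Mylk 0.50, Syp 0.63, Snap25 0.47, Pmp22 -0.026, Cnp 2.29, Hoxa11 0.10, Trf -4.07, Serpina1a 1.21, Kap 4.11, Hoxc10 -2.12, Hoxc9 -3.16, Hoxa5 -2.61, Hba-a1 -2.76, Hbb-bs -3.06, Hba-a2 -2.67, Ctsd -0.45, Lamp1 -0.006, Hp -2.05, Lepr 0.19, Fabp4 -5.56, Mertk -1.15 and Pparg -3.41. With the covariates and without the CAST/EiJ library they became Inava 1.14, Kcnk1 1.03, Rab25 3.00, Dsg2 2.68, Ap1m2 1.78, Dsp 1.81, Mpped1 2.39, Csrnp3 0.024, Syt16 10.44, Cldn8 1.74, Cidea 0.54, Pik3cb -0.19, Got1 1.35, Tstd3 -0.10, Ethe1 0.10, Bhmt 1.99, Hlf 0.90, Igfbp2 4.60, Emcn -0.16, Prox1 1.47, Krt7 0.32, Mylk 0.25, Syp 2.32, Snap25 3.02, Upk1a 2.78, Upk1b 2.89, Wfdc2 2.34, Hoxa11 1.34, Trf -1.48, Elf5 7.45, Acta1 1.29, Alb 0.99, Serpina1a 0.37, Hoxc9 -0.034, Hoxa5 -0.70, Hba-a1 -1.05, Hbb-bs -1.23, Hba-a2 -1.10, Epcam 0.56, Fabp4 -0.071 and Ucp1 3.49. With limma-voom they became Mpst 0.006 and Syp 1.05. Without NZO replicate 2 they were Mpst 0.006 and Hoxa5 -0.048, without WSB replicate 2 Camk2a 1.88, Syp 2.81, Snap25 2.34, Mbp 0.06, Hoxa5 -0.22 and Pparg -0.066, and without WSB replicate 3 Mpst 0.15 and Elf5 0.74. Over the 6 fits that each left out 1 high-fat library, these genes ranged as follows: Mpst from -0.21 to 0.15, Camk2a from -6.45 to 1.88, Syp from -1.46 to 2.81, Snap25 from -8.99 to 2.34, Mbp from -3.54 to 0.06, Elf5 from -4.26 to 0.74, Hoxa5 from -0.22 to 0.22 and Pparg from -0.066 to 0.59. Of the named genes, the fit on the 6 libraries alone left 220 with the same call, 22 without it and 11 newly called, with no change of sign. No paired analysis was possible because the replicate numbers follow accession order and pair no mice. The 6 libraries held 65452419 to 73582401 counts each, so genes at a few CPM or less rest on fewer counts than the others.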
